A study of Danio rerio with 2 samples.

Results

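Newborn neurons are cells that have just arisen from a dividing neural progenitor and begin to differentiate. Here the name stands for the cells that carried at least 1 unique molecular identifier (UMI, 1 counted transcript) of at least 3 of the 5 genes *nhlh2*, *dlb*, *insm1a*, *scrt1a* and *scrt2*, out of the cells with over 200 detected genes and under 5% mitochondrial UMIs. This gate held 358 of 5631 passing cells, of which 151 of 1771 came from the control library and 207 of 3860 from the mutant library. The members were thus chosen by measured UMIs of these 5 genes, and the levels of these genes in the members are a description.

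The data are droplet single-cell RNA sequencing of *mitfa*:GFP+ cells, sorted 36 hours after fertilisation (36 hpf) from zebrafish embryos, and were made to follow melanocyte precursors that lack *mgat4b*. Embryos of both groups were injected with a *mitfa*:Cas9;*mitfa*:gfp plasmid, in which the *mitfa* promoter, active in pigment cell precursors, drives Cas9 and green fluorescent protein, and in which guides are made from a ubiquitous promoter. The plasmid carried nontargeting guides in the control group and guides to *mgat4b*, an N-acetylglucosaminyltransferase that adds a branch to N-glycans, in the *mgat4b* mutant group. No further treatment is stated for either group. The paper's general zebrafish methods describe phenylthiourea in the embryo water and do not say whether these embryos received it. Injected embryos are mosaic, the labels call the cells of both libraries melanocytes, and the number of embryos pooled is not given in the sources used here. Each group was 1 library, so no test between groups was possible, and every interval below covers counting error only.

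In the vertebrate neural tube, proneural bHLH factors start neurogenesis and switch on Delta ligands. Delta on the newborn neuron activates Notch in its neighbours, where *her* genes hold cells in the progenitor state, and the newborn neuron itself leaves the cell cycle, turns on zinc finger factors such as Insm1, Myt1 and Scratch, and begins to make neuronal RNA-binding proteins of the Elav family. Genes of axons and synapses follow later.

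The gated cells were neural by genes that the gate did not use, but they were not of 1 stage. *elavl3* (ENSDARG00000014420), a pan-neuronal RNA-binding protein, had a UMI in 98.0% of control and 98.1% of mutant newborn neurons, against 9.85% and 5.6% of mesenchyme cells (at least 3 of *twist1a*, *prrx1a*, *fmoda*, *col1a2* and *col5a1* and in no neural gate), which should lack it. The median depth of the mesenchyme cells was 12331 and 8582 UMIs, and that of the newborn neurons 16124 and 5848. A UMI of *elavl3* together with one of the division genes *mki67*, *top2a* or *ccnb1* was present in 45.03% and 29.0% of newborn neurons. The joint shares of mesenchyme cells, 3.94% and 3.13%, could not exceed their *elavl3* shares and are no comparison for division. The division genes alone were found in 47.0% and 30.4% of newborn neurons and in 48.8% and 48.1% of mesenchyme cells. One of the synaptic genes *snap25a*, *sncb* or *vamp2* was found in 78.8% and 63.3% of newborn neurons (15.3% and 6.92% of mesenchyme cells). The gate therefore took in cells with transcripts of dividing cells and of maturing neurons, and the name newborn neurons is used for the gate. Defining pigment markers, by contrast, were absent or at background in these cells labelled melanocytes. *tyrp1b* and *tyr*, melanin synthesis genes, had no UMI in any newborn neuron. *mitfa*, the gene whose promoter drove the sort marker, had a UMI in 12.6% of control and 7.73% of mutant newborn neurons. In mesenchyme cells of the same sort the *mitfa* shares were 8.37% and 15.7%, below the newborn neurons in the control and above them in the mutant.

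Depth differed between the groups in the opposite way to the rest of each library. Control newborn neurons had a median of 16124 UMIs (interquartile range 8404 to 27381) and mutant ones 5848 (4425 to 10348), whereas all other passing cells had 3866 and 6525. The direction was not particular to this gate. Cells of the neural progenitor gate defined below had medians of 14758 and 8275 UMIs. Those of the differentiated neuron gate had 8712 and 5858, and mesenchyme cells 12331 and 8582. In the control the median depth climbed with the number of gate markers detected, from 2704 UMIs in cells with none to 22505 in cells with all 5. In the mutant it stayed between 5732 and 6555. For this reason the main ratios and shares are also given at matched depth, where every passing cell was thinned to the control median of 4919 UMIs, shallower cells were left out and the gate was applied again, which left 76 of 886 control and 103 of 2369 mutant cells. This setting was chosen after the depths had been seen. Mesenchyme shares are from unthinned cells throughout, so beside matched-depth shares of newborn neurons they are not at like depth.

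**Figure D1:**
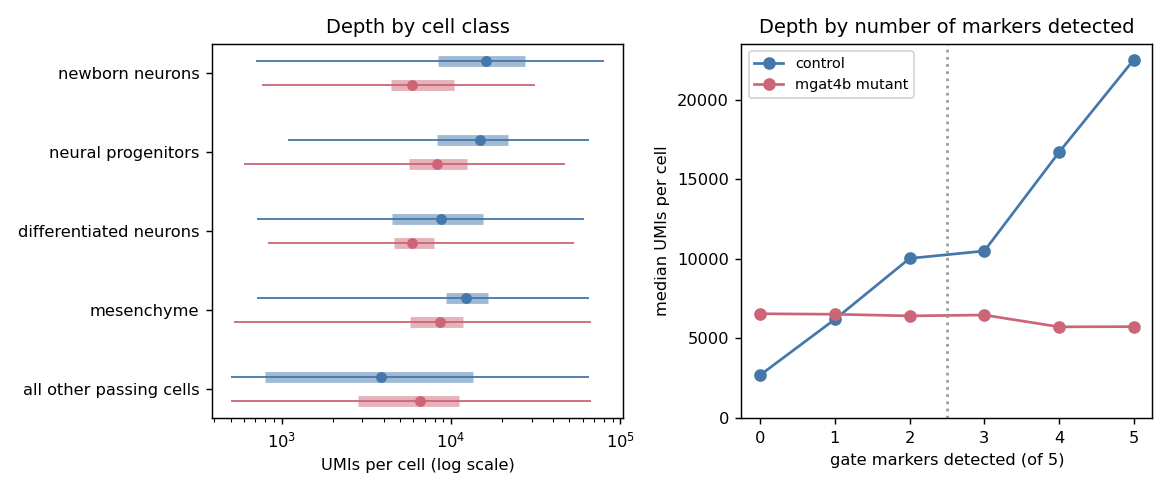
The left panel plots UMIs per cell (log axis) for each cell class, with the median as a point, the interquartile range as a bar and the full range as a line, control in blue and mutant in red. The right panel plots median UMIs per cell against the number of gate markers detected, with the gate at 3 or more to the right of the dotted line, and shows 22505 UMIs in control cells with all 5 markers against 5745 in mutant cells.

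Beside depth, 2 barcodes were shared by the libraries. Doublets were left in. Scrublet with its automatic threshold marked 2 control and 0 mutant cells and had not worked, and with an assumed rate it marked 25 and 119 cells, of which 5 and 21 were newborn neurons.

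The targeted gene was checked first. *mgat4b* (ENSDARG00000004115) stood at 165 CPM (UMIs of a gene per 1000000 UMIs of the summed cells) in control newborn neurons from 526 UMIs and at 85.9 CPM in mutant ones from 146 UMIs, a ratio of 0.520 (0.43 to 0.626), with 12.7% of its UMIs in 1 cell. At matched depth the ratio was 0.807 (0.485 to 1.35), and in all other passing cells it was 1.03. The matched ratio came from 32 control and 35 mutant UMIs, and 1 mutant cell held 19 of the latter. *mgat4b* transcripts were thus present in the newborn neurons of both libraries. At matched depth the interval included 1, and so few UMIs show neither a decrease nor its absence. In unthinned cells the ratio was 0.446 without the highest cell of each library, and 0.191 with at least 4 markers required. Among the N-glycan branching enzymes, 0 of 7 measured genes were past the size rule used throughout. That rule asks for 50 or more UMIs, CPM that differ by 2-fold or more, and a 95% interval without 1. *mgat4a*, a sister enzyme, stood at 72.5 and 77.6 CPM and *mgat5*, which adds another branch, at 94.2 and 78.2 CPM.

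Newborn neurons made up 8.53% (exact 95% interval 7.27 to 9.93) of passing control cells and 5.36% (4.67 to 6.12) of passing mutant cells, a ratio of 0.629 (0.514 to 0.770). Leaving out any 1 of the 5 markers gave ratios of 0.576 to 0.635. At matched depth the shares were 8.58% and 4.35%, a ratio of 0.507 (0.381 to 0.675), and 10 random draws of the thinning gave 69 to 76 control and 97 to 109 mutant cells. With all cells thinned to 836 UMIs the shares were 1.05% and 1.51%, a ratio of 1.43 (0.798 to 2.57), but a gated cell was then expected to hold only 0.118 to 0.537 UMI of each marker, and no direction is read from that depth. Among cells in any of the 3 neural gates, the newborn share was 39.7% for the control library and 29.9% for the mutant library. A share of a sorted library moves with every other cell type in the sort, and fewer newborn neurons cannot be told apart from more of the other cells.

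**Figure D2:**
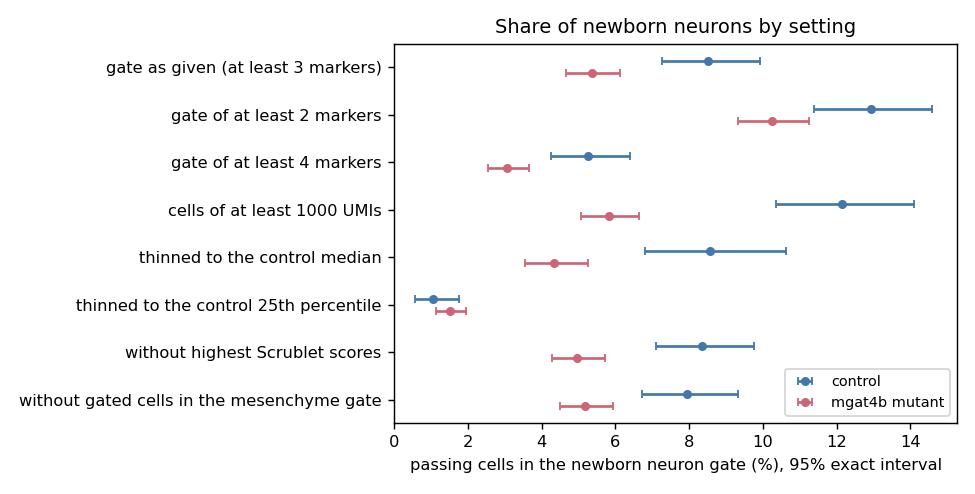
Percent of passing cells in the newborn neuron gate, with exact 95% intervals, for the control (blue) and mutant (red) library under 8 settings. The control share was the higher in 7 of them, and at 836 UMIs per cell (control 25th percentile) both were under 2%.

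The gate markers were present in most members. *nhlh2*, a bHLH factor of early neurons, had a UMI in 86.1% of control and 83.1% of mutant newborn neurons, *dlb*, a Delta ligand, in 86.1% and 83.6%, *insm1a*, a zinc finger factor of delaminating neuronal precursors, in 74.2% and 74.9%, *scrt2*, a Scratch family repressor, in 89.4% and 86.0%, and its relative *scrt1a* in 55.6% and 49.8%. In mesenchyme cells these shares ran from 0 to 6.40%. All 5 markers were found together in 45 control (29.8%) and 42 mutant (20.3%) newborn neurons. The next most frequent combination, all but *scrt1a*, was found in 26 (17.2%) and 42 (20.3%). In unthinned cells the levels of the markers were higher in mutant newborn neurons, with 229 and 579 CPM of *nhlh2* and 317 and 642 CPM of *dlb*. Part of this difference is built in, because a deeper cell meets the gate at a lower CPM and control members were deeper. The lowest sum of the 5 markers in any member was 88.1 CPM (control) and 211 CPM (mutant), but 609.9 CPM for either library once depth was matched. At matched depth the ratios were 1.78 for *nhlh2*, 1.45 for *insm1a*, 1.37 for *scrt1a*, 1.19 for *scrt2* and 1.11 for *dlb*.

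At the edge of the gate, cells with 2 markers numbered 78 (control) and 189 (mutant), and cells with 3 numbered 58 and 89. *elavl3* stood at 1367 CPM in control cells with 2 markers and 2475 CPM in those with 3, and at 1657 and 2861 CPM in the mutant. The summed level of 15 epidermis markers was 23527 and 4221 CPM on the 2 sides in the control and 8905 and 7459 CPM in the mutant. Control cells with 4 markers, inside the gate, held 17521 CPM of these, and among all gated cells 1 control cell held 40.6% and 1 mutant cell 33.3% of the list's UMIs in its group. Cells just outside held neuronal transcripts at a lower level. In the mutant the epidermal sum fell with each further marker, from 13478 CPM with 1 marker to 747 CPM with 5. In the control it went from 21200 to 1206 CPM, but not steadily.

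The gate overlapped its neighbours along the lineage. The neural progenitor gate (at least 3 of *sox3*, *sox19a*, *her4.2*, *her15.1* and *fabp7a*) was also met by 45.7% of control and 19.8% of mutant newborn neurons, and the differentiated neuron gate (at least 3 of *snap25a*, *stmn2a*, *sncb*, *vamp2* and *gng3*) by 60.9% and 30.0%. Only 18.5% and 53.6% met neither. At matched depth the differentiated gate was met by 31.6% and 30.1%, the progenitor gate by 23.7% and 16.5%, and neither by 47.4% and 55.3%, with overlapping intervals in each case. One of the progenitor markers, *her15.1*, was itself lower in the mutant library, as given below.

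Cells of those gates that did not meet the newborn gate (134 control and 247 mutant progenitors, 112 and 244 differentiated neurons) were used as neighbours. Leaving out the shared cells itself lowers genes of the newborn gate's programme in both neighbours, so the course over the classes is a description. *sox3*, an SoxB1 factor of neural progenitors and part of the progenitor gate, stood at 249 CPM in control progenitors, 142 in newborn neurons and 88.3 in differentiated neurons, and at 335, 181 and 13.9 CPM in the mutant. *sncb*, a synuclein of nerve terminals and part of the differentiated gate, ran the other way, from 50.9 through 281 to 453 CPM in the control and from 17.4 through 271 to 848 CPM in the mutant. *stmn1b*, a stathmin that regulates microtubules and that no gate used, took the same course, from 110 through 629 to 716 CPM and from 41.9 through 435 to 928 CPM. Other genes were highest in the newborn neurons in both libraries. *dla*, a Delta ligand, stood at 385, 852 and 95.3 CPM in the control and 581, 1207 and 21.7 CPM in the mutant. *insm1b*, the paralog of the gate marker *insm1a*, stood at 5.51, 66.2 and 15.4 CPM and at 6.63, 191 and 44.5 CPM. *myt1a*, a zinc finger factor that promotes neuronal differentiation, stood at 113, 367 and 190 CPM and at 118, 619 and 348 CPM, and *elavl3* was likewise highest in newborn neurons.

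**Figure D3:**
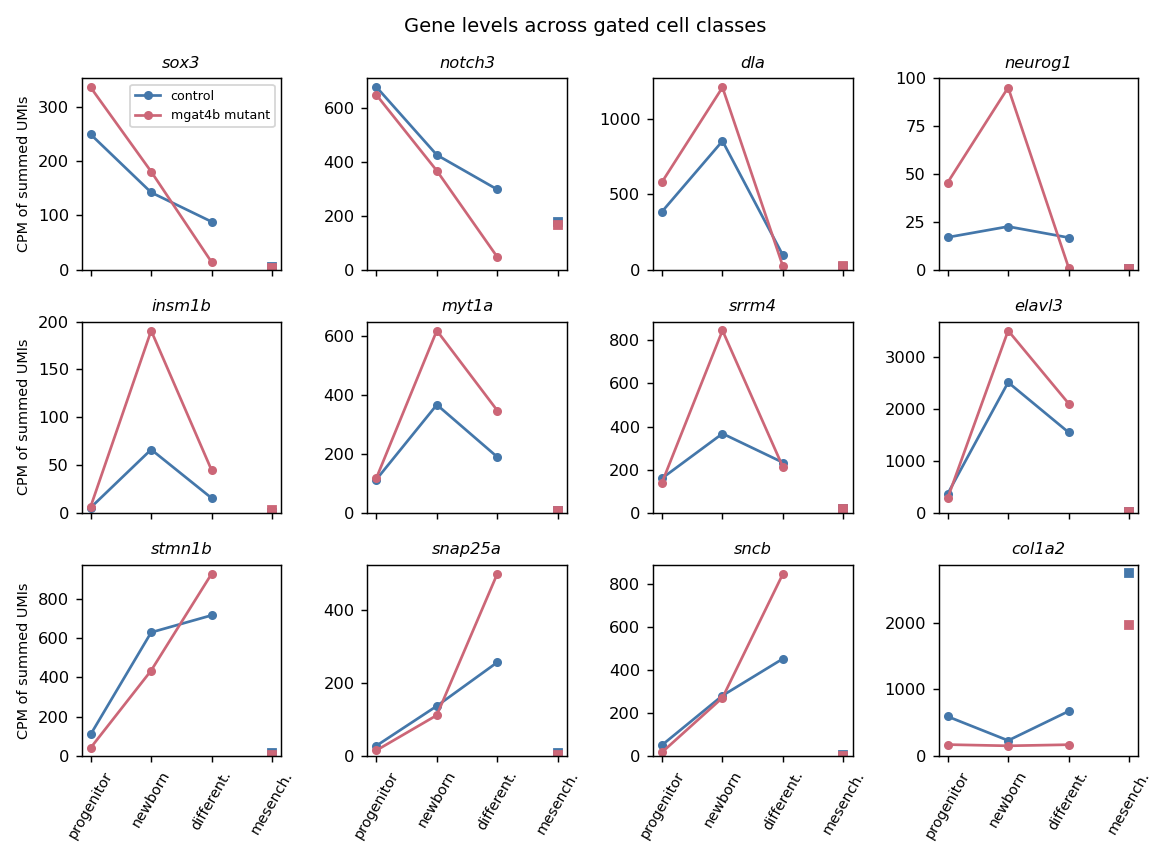
CPM of summed UMIs for 12 genes in progenitors, newborn neurons and differentiated neurons (points joined by lines) and in mesenchyme (square), control in blue and mutant in red, with every vertical axis starting at 0. *dla*, *insm1b*, *myt1a* and *elavl3* peaked in newborn neurons in both libraries, while *col1a2*, a mesenchyme gate gene, was highest in mesenchyme.

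Against all other passing cells, 440 of 8785 genes with at least 50 UMIs (5.01%) were at least 4-fold higher in newborn neurons of both libraries. This contrast was built from the same cells as the gate and is a description. Besides the 5 markers, the gene furthest above the other cells in both libraries was *olig4*, a bHLH factor of the neural tube, at 27.4-fold in the control and 52-fold in the mutant. The 14 that followed were mostly homeobox factors of neuronal subtypes. *isl2b*, a LIM homeobox factor of sensory and motor neurons, stood 19.1- and 22.3-fold above the other cells, *skor1b*, a corepressor of dorsal spinal neurons, 18.2- and 23.1-fold, *dbx1a*, a homeobox factor of ventral interneuron progenitors, 22.2- and 16.1-fold, *vsx1*, a homeobox factor of retinal bipolar cells and V2 interneurons, 14.4- and 15.03-fold, and *lhx1b* 13.6- and 64.6-fold. *sox12*, an SoxC factor, *barhl1a*, *barhl1b*, *onecutl*, *evx2* and *insm1b* were also among them. The others were *zgc:158291*, *si:ch211-56a11.2* and ENSDARG00000005626, to which no role is assigned here. These folds are of summed UMIs, and most of these genes were found in a minority of members. *isl2b* had a UMI in 9.93% of control and 5.31% of mutant newborn neurons. The shares were 9.27% and 9.18% for *skor1b* and 8.61% and 4.35% for *vsx1*. The largest were 56.95% and 43.5% for *sox12* and 44.4% and 46.4% for *insm1b*. Among the gene lists, 4 of 4 measured later neuronal bHLH factors, 5 of 7 proneural factors, 24 of 34 hindbrain and spinal cord factors and 13 of 21 neuronal zinc fingers stood over 4-fold, gate markers included.

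Between the groups, 192 of 8785 measured genes (2.19%) were higher in mutant newborn neurons by the size rule and 862 (9.81%) were lower. The median log2 ratio over all genes was -0.20. Scaling by TMM moved that median to 0.03 and the counts to 327 higher and 511 lower. Among gated cells that met neither of the other neural gates (28 control and 111 mutant cells, 2661 genes measured), 210 genes were higher and 154 lower, so that the surplus of lower genes was not kept. At matched depth 2684 genes were measured, the median was -0.01, and 73 (2.72%) were higher and 83 (3.09%) lower. Of the 192 genes higher in all gated cells, 53 had enough UMIs at matched depth, all 53 lay above 1 there and 31 were still past the rule. Of the 862 lower genes 52 had enough UMIs, 48 lay below 1 and 30 were past the rule. Most of the lower calls could therefore not be looked at in cells of equal depth. The thinned newborn neurons are some of the same cells with fewer of their UMIs, so agreement in direction is partly built in. The part of depth in the remaining calls was not tested. The shares over all genes given here are the background for the list counts below.

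Among bHLH factors that drive neurogenesis, *neurog1* and *neurod4* were higher in the mutant at either depth. Of 7 measured proneural factors 3 were higher (2.19% of all genes were) and 0 lower, with a median log2 ratio of 0.88. These were *neurog1*, *olig4* (21.7 and 48.8 CPM) and *olig2*, of motor neuron and oligodendrocyte progenitors (8.16 and 21.2 CPM), and of them *neurog1* alone had enough UMIs at matched depth. *neurog1* (ENSDARG00000056130), which starts neurogenesis in sensory ganglia and parts of the neural tube, stood at 22.6 CPM in control and 95.3 CPM in mutant newborn neurons, from 72 and 162 UMIs. Its ratio was 4.22 (3.17 to 5.64), and 5.17 (2.33 to 13.5) at matched depth. The matched ratio came from only 7 control UMIs, 1 in each of 7 cells, and from 49 mutant UMIs. At that depth 9.21% (3.78 to 18.1) of control and 16.5% (9.92 to 25.1) of mutant newborn neurons held a UMI, with overlapping intervals. In mesenchyme cells the shares were 0.493% and 0.165%. In all other cells the *neurog1* ratio was 1.49. *ascl1a* and *ascl1b*, proneural factors of other domains, stood at 15.4 and 28.2 CPM and at 17.9 and 32.9 CPM, within the rule. *atoh1b*, of the rhombic lip, was the list's gene with a ratio below 1, at 22.9 and 13.5 CPM, with 44.8% of its UMIs in 1 cell.

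Of 4 measured later factors 2 were higher, with a median of 1.08, but 1 of these is the gate marker *nhlh2*. The median of 0.83 for the 3 measured at matched depth is the value of *nhlh2* itself, so nothing is read from it. The other was *neurod4* (64.7 and 182 CPM), a factor downstream of the proneural genes, with a ratio of 2.81 (2.35 to 3.37) and 2.71 (1.87 to 4.01) at matched depth, but of 1.42 among newborn neurons that met neither of the other neural gates (28 control and 111 mutant cells). *neurod1*, of the same family, stood at 107 and 166 CPM and at a ratio of 0.939 (0.650 to 1.36) at matched depth. At matched depth 35.5% (24.9 to 47.3) of control newborn neurons and 51.5% (41.4 to 61.4) of mutant ones held a UMI of *neurod1* or *neurod4*, against 2.96% and 0.329% of mesenchyme cells.

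Neuronal zinc fingers and differentiation factors were nearer to the background. Of 21 measured genes 3 were higher (2.19% of all genes were) and 2 lower (9.81%). The ratio was above 1 in 15, with a median of 0.47 (0.20 at matched depth). The list holds 3 of the gate markers, and these counts and medians include them. Of the 3 higher genes 2 (*insm1a* and *scrt1a*) are gate markers, which leaves *insm1b*. *insm1b* (66.2 and 191 CPM) had a ratio of 2.88 (2.41 to 3.44), of 3.30 (2.21 to 5.07) at matched depth, and of 1.59 among cells in neither of the other neural gates. *myt1a* stood at 367 and 619 CPM, with 1.83 (1.53 to 2.20) at matched depth, and *myt1b* at 627 and 982 CPM, with 1.098 (0.966 to 1.25). *ebf3a*, a HLH factor of migrating young neurons, stood at 2423 and 2492 CPM and at 0.742 (0.685 to 0.803) at matched depth. *sox11a* and *sox11b*, SoxC factors of immature neurons, had matched ratios of 1.15 and 1.24. At matched depth *insm1b* was thus the list's gene on the higher side of the rule, and *ebf1b* and *bcl11ba* were those on the lower side.

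Most Delta ligands differed little at matched depth. Of 8 measured ligands 1 was higher, the gate marker *dlb*. The list median, which includes *dlb*, was 0.40 (0.15 at matched depth). *dla* stood at 852 and 1207 CPM, with a ratio of 1.42 (1.34 to 1.5), and at 1.01 (0.906 to 1.12) at matched depth. *dld* stood at 76.0 and 86.4 CPM and *dlc* at 31.1 and 38.2 CPM. *dll4*, a Delta ligand best known from vessels, stood at 28.6 and 45.3 CPM, with a ratio of 1.58 in all gated cells, of 2.95 (1.45 to 6.62) at matched depth, where it passed the rule from 10 and 40 UMIs, and of 0.798 among cells in neither of the other neural gates. Of 10 receptors and modifiers 0 were higher and 1 was lower, with a median of -0.07. The receptors lay on either side of 1, with 453 and 664 CPM of *notch1a* (1.20 at matched depth), 287 and 185 CPM of *notch1b* (0.607) and 426 and 368 CPM of *notch3* (0.608).

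Of the lists of the neural lineage, Notch targets had the lowest median. Of 11 measured targets 4 were lower (9.81% of all genes were) and 1 higher, with a median of -0.81, and at matched depth 3 of 8 were lower (3.09% of all genes) with a median of -0.83. *her15.1* (ENSDARG00000054562), a Hes5-type repressor of neural progenitors, stood at 171 and 26.5 CPM and its neighbour *her15.2* (ENSDARG00000054560) at 158 and 17.1 CPM. Their ratios were 0.155 (0.112 to 0.210) and 0.108 (0.0717 to 0.157), and 0.155 and 0.104 at matched depth. In all other passing cells they were 0.215 and 0.203, so the same direction was seen outside the newborn neurons. The *her15* copies are near-identical, as are those of *her4*, and the division of reads between copies is uncertain. Within the *her4* family *her4.1* stood at 64.7 and 35.9 CPM (0.420 at matched depth, past the rule), *her4.2* at 169 and 192 CPM (1.103) and *her4.4* at 22.9 and 49.98 CPM (past the rule on the higher side). *her6*, a Hes1-type repressor, stood at 191 and 89.4 CPM, with a ratio of 0.468 (0.389 to 0.560) and 0.518 (0.322 to 0.826) at matched depth, and *hey1* at 76.6 and 35.3 CPM. At matched depth 40.8% (29.7 to 52.7) of control newborn neurons and 23.3% (15.5 to 32.7) of mutant ones held a UMI of *her4.1*, *her4.2* or *her12*, as did 11.3% and 9.39% of mesenchyme cells. The targets were spread over few cells: at matched depth the highest control cell held 20.2% and the highest mutant cell 25.2% of the list's UMIs in its group.

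**Figure D4:**
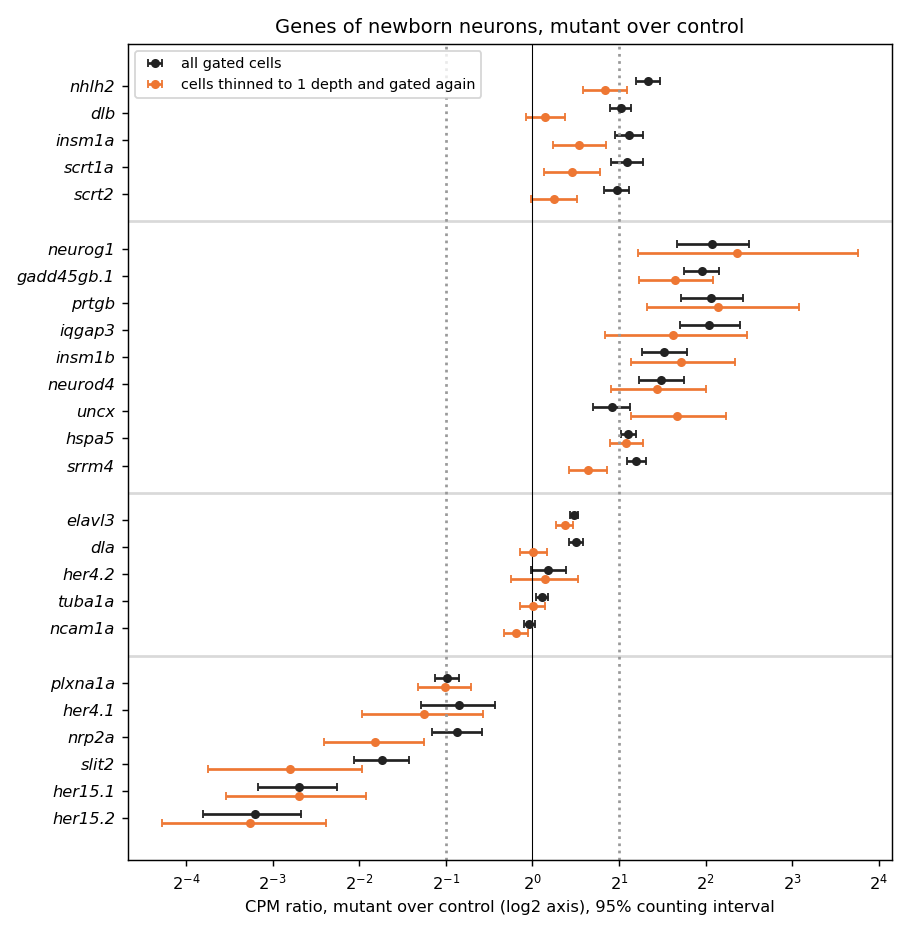
CPM ratio of mutant over control newborn neurons (log2 axis) with 95% counting intervals, for all gated cells (black) and for cells thinned to 4919 UMIs and gated again (orange). Dotted lines mark a ratio of 2 in either direction. *neurog1*, *gadd45gb.1*, *prtgb*, *insm1b* and *neurod4* lay past 2 in both sets, *elavl3* and *dla* lay between the lines, and *slit2*, *her15.1* and *her15.2* lay past the lower line in both.

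Neural progenitor genes other than *her* genes were close to the background, with 1 of 18 higher and 1 lower and a median of -0.24 (-0.12 at matched depth). *sox2*, an SoxB1 factor, stood at 100.5 and 67.6 CPM and *sox3* at 142 and 181 CPM. At matched depth *sox2* or *sox3* was detected in 39.5% and 39.8% of cells. The lower gene was *id1*, an HLH protein that binds and blocks proneural partners, at 573 and 249.9 CPM, with a ratio of 0.436 (0.392 to 0.485), and 0.238 (0.176 to 0.318) at matched depth. In all other cells its ratio was 0.745, and among newborn neurons that met neither of the other neural gates (28 control and 111 mutant cells) it was 1.57. *nes*, the intermediate filament nestin, was past the rule in all gated cells (159 and 321 CPM, ratio 2.02) and within it at matched depth (1.51, 1.13 to 2.03). *fabp7a*, a lipid-binding protein of radial glia and part of the progenitor gate, stood at 533 and 443 CPM, with 0.534 (0.426 to 0.668) at matched depth.

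Transcripts of dividing cells were still found in part of the newborn neurons. At matched depth *mki67*, *top2a* or *ccnb1* was detected in 31.6% of control newborn neurons and 34.0% of mutant ones, and 27.6% and 32.0% held both such a UMI and one of *elavl3*. Unthinned, the first share was 47.0% (38.9 to 55.3) of control and 30.4% (24.3 to 37.2) of mutant newborn neurons, and mesenchyme cells, which also divide, had 48.8% and 48.1%. S phase genes had 0 of 16 higher and 2 lower, near the 9.81% of all genes, with a median of -0.43, and 0 of 5 past the rule with a median of -0.29 at matched depth. G2 and M phase genes had 0 of 16 past the rule and a median of 0.23 (0.34 for the 10 measured at matched depth). *pcna*, the replication clamp, stood at 211 and 128 CPM (0.671 at matched depth), and *mki67*, a marker of dividing cells, at 442 and 586 CPM (1.47). No phase of the cycle was called from these values.

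Cell cycle exit genes held 2 of 13 higher (2.19% of all genes were) and 0 lower (9.81%), with a median of 0.23 (0.07 at matched depth). *gadd45gb.1* (ENSDARG00000016725), a growth arrest gene of the early neuronal lineage, stood at 92.3 CPM in control and 358 CPM in mutant newborn neurons, a ratio of 3.87 (3.37 to 4.47) and of 3.13 (2.34 to 4.24) at matched depth. Its UMIs were spread, with 3.104% of them in the highest cell, and its ratio in other cells was 2.20. *cdkn1ca*, a Kip-type cyclin-dependent kinase inhibitor, stood at 82.2 and 190 CPM, with 2.31 (1.96 to 2.73) in all gated cells and 1.51 (1.102 to 2.095) at matched depth. Its relative *cdkn1bb* stood at 236 and 277 CPM. *gadd45gb.1* alone of this list was past the rule at matched depth.

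Neuronal RNA-binding proteins held few genes past the rule. Of 17 measured genes 1 was higher and 0 lower, and at matched depth 0 of 14 were past the rule, with a median of 0.03. *elavl3* stood at 2516 and 3513 CPM, with a ratio of 1.40 (1.35 to 1.44), and 1.29 (1.21 to 1.39) at matched depth. Among newborn neurons in neither of the other neural gates its ratio was 0.857, on the other side of 1. *elavl4*, a later Elav gene, stood at 1143 and 897 CPM, at a ratio of 1.01 (0.859 to 1.19) at matched depth and of 0.400 among those cells. *nova2*, a neuronal splicing factor, stood at 2474 and 2891 CPM. The gene past the rule was *srrm4*, which activates microexons in neurons, at 368 and 846 CPM with a ratio of 2.30 (2.13 to 2.49), of 1.56 (1.34 to 1.82) at matched depth, and of 1.01 among newborn neurons in neither of the other neural gates. Chromatin genes and the REST switch had 0 of 12 higher and 1 lower.

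Genes of the growing axon and of the synapse differed little at matched depth. Of 29 measured cytoskeleton and axon growth genes 0 were higher and 1 was lower, with medians of -0.11 and -0.02. At matched depth *map1b*, a microtubule-associated protein, was the 1 of 26 past the rule, at a ratio of 0.333 (0.194 to 0.554). *tuba1a*, a tubulin of growing neurons, stood at 1456 and 1574 CPM, with a matched ratio of 1.002 (0.906 to 1.11), and *gap43*, a growth cone protein, at 225 and 160.5 CPM, with 0.863 (0.611 to 1.22). Synapse genes had 0 of 23 higher and 2 lower, with 0 of 13 past the rule and a median of 0.01 at matched depth. *nrxn2a*, a presynaptic adhesion protein, stood at 554 and 223.5 CPM, a ratio of 0.403 (0.360 to 0.451), and at 0.533 (0.381 to 0.741) at matched depth. *nrxn1a*, its relative, had ratios of 0.731 (0.677 to 0.789) in all gated cells and 1.40 (1.13 to 1.73) at matched depth, on opposite sides of 1. A UMI of *snap25a*, *sncb* or *vamp2* was found in 64.5% and 67.0% of cells at matched depth.

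Transmitter genes reached 50 UMIs in 11 of 22 cases. Of these 1 was higher (2.19% of all genes were) and 3 were lower (9.81%), with a median of -0.18. At matched depth 0 of the 4 measured were past the rule. *slc17a6a* or *slc17a6b*, vesicular glutamate transporters, were detected in 27.6% of control and 20.4% of mutant newborn neurons at matched depth, and genes of GABA synthesis or its vesicular transporter in 27.6% and 30.1%. In mesenchyme cells these shares were 6.40% and 3.79%, and 6.90% and 2.80%. Both kinds met in 2.63% and 4.85% of newborn neurons. *slc5a7a*, the choline transporter of cholinergic neurons, stood at 5.02 and 33.5 CPM from 16 and 57 UMIs, a ratio of 6.67 (3.78 to 12.4). At matched depth it had 0 and 21 UMIs. The hormone gene *sst1.1* showed how few cells can carry a value: of its 190 UMIs in control newborn neurons 98.95% came from 1 cell, and the mutant had 0.

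Axon guidance and adhesion genes had 1 higher and 5 lower of 36, near the background of 2.19% and 9.81% of all genes, with a median of -0.16. At matched depth 3 of 30 were lower (3.09% of all genes) and 1 higher, with a median of -0.01. *slit2* (ENSDARG00000004246), a secreted repellent for commissural axons, stood at 190 and 57.0 CPM, a ratio of 0.301 (0.240 to 0.373), with 19.1% of its UMIs in 1 cell. At matched depth its ratio was 0.143 (0.0747 to 0.257), from 72 control and 14 mutant UMIs, and 1 control cell held 33 of the 72. In other cells its ratio was 0.927. *plxna1a*, a semaphorin receptor, stood at 660 and 334 CPM, with 0.496 (0.401 to 0.612) at matched depth, and *nrp2a*, a semaphorin coreceptor, at 140 and 76.4 CPM, with 0.284 (0.189 to 0.420). *unc5a*, a netrin receptor, was past the rule in all gated cells (426 and 134 CPM) and within it at matched depth (0.707, 0.459 to 1.09). *dcc*, the attractive netrin receptor, stood at 152 and 288 CPM, with 1.58 (1.21 to 2.08) at matched depth, and *robo3*, a receptor of commissural axons, at 1122 and 1025 CPM. *cxcr4b*, a chemokine receptor, stood at 44.6 and 97.6 CPM, with 1.18 (0.819 to 1.72) at matched depth. *l1camb*, an adhesion molecule of axons, stood at 117 and 116 CPM but passed the rule at matched depth (2.05, 1.26 to 3.46).

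Factors used in different parts of the nervous system were found among the newborn neurons. A UMI of any of 48 *hox* genes, used from the hindbrain backward, was carried by 60.5% (48.7 to 71.6) of control newborn neurons and 45.6% (35.8 to 55.7) of mutant ones at matched depth, but also by 64.0% and 60.1% of mesenchyme cells, so it sets no neural share. A UMI of *otx1*, *otx2a* or *otx2b*, used in forebrain and midbrain, was found in 30.3% and 22.3%, against 5.42% and 1.65% of mesenchyme cells. Both met in 14.5% and 3.88%. *pax2a*, *pax2b*, *pax5* or *pax8*, used at the midbrain-hindbrain boundary and in inhibitory interneurons, were found in 43.4% and 43.7% (3.94% and 3.79% of mesenchyme cells), and *otpa* or *otpb*, used in the hypothalamus and hindbrain, in 28.9% and 16.5% (9.85% and 0.988%).

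Factors of regional identity lay on both sides within their lists. Of 34 measured hindbrain and spinal cord factors 3 were higher (2.19% of all genes were) and 5 lower (9.81%), with a median of 0.22. At matched depth 3 of 14 were higher (2.72% of all genes) and 2 lower (3.09%), with a median of -0.07. *uncx* (116 and 218 CPM) and *uncx4.1* (49.9 and 90.6 CPM), homeobox factors, had ratios of 1.89 and 1.81 in all gated cells and of 3.18 (2.20 to 4.70) and 2.18 (1.37 to 3.59) at matched depth. *skor1b* stood at 23.5 and 52.3 CPM, with 2.08 (1.15 to 3.93) at matched depth. On the lower side at matched depth were *phox2bb*, a homeobox factor of visceral motor and noradrenergic neurons (97.6 and 94.1 CPM in all gated cells, ratio at matched depth 0.492, 0.313 to 0.764), and its relative *phox2a* (70.9 and 63.5 CPM, 0.399 at matched depth). Neither was past the rule in all gated cells. Among newborn neurons in neither of the other neural gates *phox2bb* had a ratio of 0.166, past the rule, and *phox2a* 0.594, within it. *tal1*, a bHLH factor of inhibitory V2b interneurons, stood at 47.7 and 18.8 CPM and *gata3*, of the same cells, at 29.8 and 9.41 CPM, and neither reached 50 UMIs at matched depth.

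Of 22 forebrain factors 4 were higher (2.19% of all genes were) and 4 lower (9.81%), with a median of 0.17. *tbr1b* (12.6 and 27.6 CPM) and *eomesa* (8.79 and 24.1 CPM), T-box factors of glutamatergic neurons, were on the higher side, and *dlx2a* (25.4 and 3.53 CPM) and *dlx5a* (44.9 and 10.6 CPM), homeobox factors of GABAergic neurons, on the lower. The highest cell held between 18.01% and 27.5% of the UMIs of each of these 4 genes, and none reached 50 UMIs at matched depth. The list's other genes past the rule are not named here, and no shift between neuron types is read from these 4. Cells with a UMI of *foxg1a*, *emx3*, *tbr1b* or *eomesa* made up 20.5% (control) and 10.1% (mutant) of unthinned newborn neurons. With depth matched, these shares were 9.21% and 10.7%, with overlapping intervals. Retina factors had 1 of 8 higher and 2 lower, with *vsx1* at 20.7 and 61.2 CPM (1.51, 0.888 to 2.64, at matched depth). Factors of cranial ganglia and placodes had 1 of 15 higher and 1 lower. A UMI of *pou4f1* or *isl1*, used in sensory ganglia and motor neurons, was carried by 34.2% (23.7 to 46.0) of control newborn neurons and 15.5% (9.15 to 24) of mutant ones at matched depth, and by 2.46% and 1.48% of mesenchyme cells. *insm1a* is also used by endocrine cells and hair cells. The 14 endocrine genes summed to 270 CPM in control and 298 CPM in mutant newborn neurons, against 149.8 and 180 CPM in all other cells, with 2 of the 6 measured genes over 4-fold, and the 12 hair cell genes to 130 and 139 CPM against 92.2 and 98.1 CPM.

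Over all genes, the 10 largest ratios on each side were taken among genes with at least 100 UMIs. On the higher side, beside *neurog1* and *gadd45gb.1*, were *prtgb*, an adhesion protein of the neural tube (30.4 and 128 CPM, 4.43 at matched depth), *iqgap3*, a scaffold protein of dividing cells (32.6 and 135 CPM, 3.08), ENSDARG00000113103 (53.4 and 210 CPM, 2.68), *gch2*, a pteridine enzyme of pigment cells (6.91 and 70.0 CPM), CABZ01021592.1 (21.7 and 116 CPM), *scn4ab*, a sodium channel (11.3 and 55.9 CPM), *wdpcp*, a cilium gene (10.99 and 51.2 CPM), and *gfra3*, a neurotrophic factor receptor (10.7 and 47.0 CPM). *gch2* and CABZ01021592.1 stood at 711 and 2850 CPM and at 2242 and 7702 CPM in all other cells, far above newborn neurons, with ratios of 4.01 and 3.44 there. *prtgb* and *iqgap3* had ratios of 2.29 and 1.03 in other cells, and *prtgb* had 1.83 among newborn neurons in neither of the other neural gates.

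On the lower side, beside *her15.1* and *her15.2*, the genes reported here were *cacna1ia*, a calcium channel (33.6 and 3.53 CPM), *gpc1b*, a glypican (52.7 and 7.64 CPM), *ptprt*, a receptor phosphatase (121 and 17.6 CPM), *efna3a*, an ephrin (87.3 and 15.9 CPM), *kcnd2*, a potassium channel (54.0 and 10.00 CPM), *pccb*, a mitochondrial carboxylase subunit (28.2 and 5.88 CPM), and ENSDARG00000113771 (69.7 and 11.8 CPM). Of the 10 only the *her15* pair reached 50 UMIs at matched depth. The highest cell held between 6% and 18.2% of the UMIs of the others.

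Dissociation stress genes were largely even. Of 12 dissociation stress genes 1 was higher and the median was 0.01. That gene was *hspa5*, the chaperone of the endoplasmic reticulum, at 677 and 1462 CPM, with a ratio of 2.16 (2.04 to 2.29) and of 2.12 (1.85 to 2.42) at matched depth. In all other cells its ratio was 1.78. *fosab*, an immediate early gene, stood at 482 and 463 CPM.

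Transcripts of other cell types differed between the groups too, and their part in the ratios above was not tested. The summed level of the 15 epidermis markers was 7605 CPM in control and 3985 CPM in mutant newborn neurons, and 2421 and 774 CPM at matched depth, against 56247 and 34829 CPM in all other cells. *krt4*, a keratin, made up 2668 and 1124 CPM of it, with 34.2% of its UMIs in 1 cell. Of 14 measured epidermis markers 5 were lower, and 6 of 7 at matched depth (3.09% of all genes). Of the 11 mesenchyme markers 6 were measured and 1 was lower, with 4 of 4 lower at matched depth, and their sum was 879 and 522 CPM, or 500.2 and 227 CPM at matched depth. Muscle markers summed to 205 and 826 CPM, and 8 of 9 measured were higher in the mutant. One mutant cell held most of that signal, with 81.1% of the *mylpfa* UMIs of both groups together, and at matched depth the sums were 64.2 and 55.3 CPM. Without newborn neurons that also met the mesenchyme gate the *mylpfa* ratio was 0.223. Blood markers summed to 73.8 and 61.2 CPM, and pigment markers to 133 and 224 CPM. Of 3 measured pigment markers 1 was higher (2.19% of all genes were), as was the 1 measured at matched depth (2.72%). *sox10* or *foxd3*, neural crest genes, was detected in 6.58% and 0.971% of newborn neurons at matched depth. Unthinned, the shares were 9.93% and 5.80% of newborn neurons and 5.91% and 3.46% of mesenchyme cells.

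**Figure D5:**
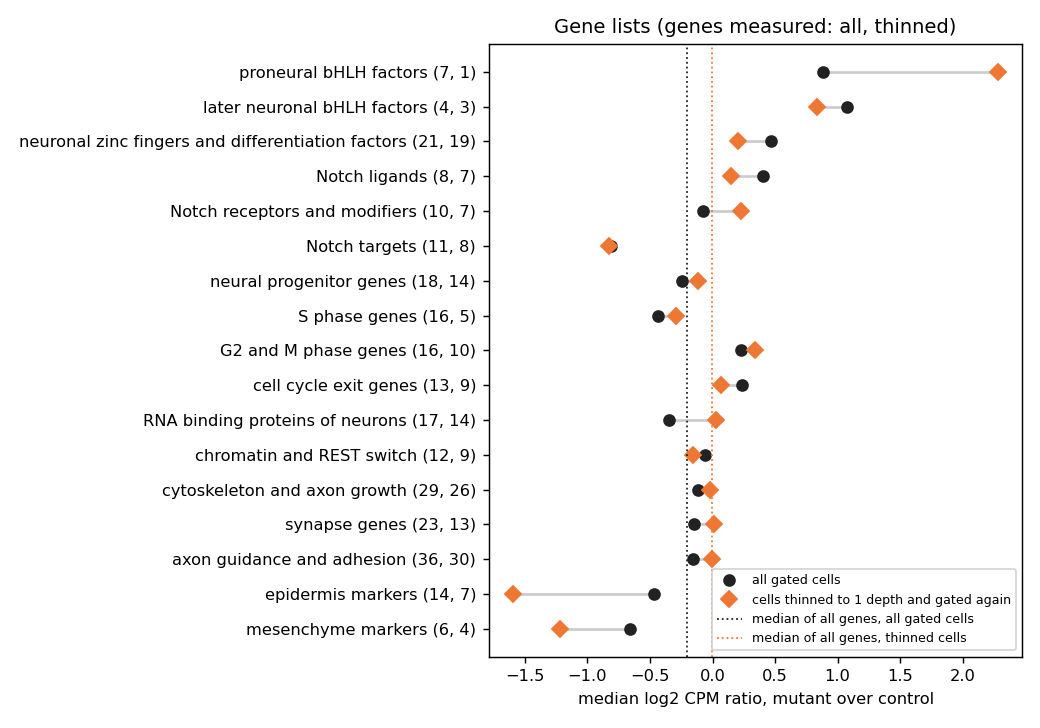
Median log2 CPM ratio of mutant over control newborn neurons for 17 gene lists, in all gated cells (black) and in cells thinned to 1 depth and gated again (orange), with the numbers of measured genes in brackets and the medians over all genes as dotted lines (-0.20 and -0.01). Gate markers are included in the medians of 3 lists: *nhlh2* in the later bHLH list, *dlb* in the Notch ligands, and *insm1a*, *scrt1a* and *scrt2* in the zinc fingers. At matched depth the median of the later bHLH list is *nhlh2* itself, and the proneural list is *neurog1* alone. Notch targets lay at -0.81 and -0.83, and epidermis and mesenchyme markers at -1.60 and -1.22 at matched depth.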

How the data were processed

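The authors deposited UMI counts per gene and cell for 1 control and 1 *mgat4b* mutant library of 10x Chromium *mitfa*:GFP+ cells. Matrix headers and the submitters' processing notes name cellranger 7.2.0 and GRCz11. No counts were normalized by the authors in these files. The barcodes numbered 1923 and 4120, with 17502003 and 31032783 UMIs. Rows of 517 symbols with more than 1 feature were summed, leaving 24782 symbols.

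Cells with over 200 genes and under 5% mitochondrial UMIs were kept, and gated cells were summed per library (3185586 and 1700534 UMIs). Ratios of CPM carry exact conditional binomial intervals, shares Clopper-Pearson intervals and ratios of shares Katz intervals, at 95%, without replicates. Past the size rule meant at least 50 UMIs, a ratio of at least 2 and an interval that excludes 1. Log2 medians used a prior of 0.5 UMI. Named genes were *mgat4b*, the gate markers, measured list members, the 10 largest ratios in each direction (at least 100 UMIs, under 20% in 1 cell) and the 15 largest folds over other cells (lower of both libraries). The members and gene lists were chosen with earlier results of these data known. Doublets were not removed. Scrublet was run in scanpy 1.11.5 with an assumed rate of 0.8% per 1000 cells for an alternative. Alternatives changed the gate, cell filter, depth, denominators, scaling (TMM, edgeR 4.0.16 in R 4.3.3), minimum UMIs and ratio. Python 3.11.15, numpy 2.4.6, scipy 1.17.1 and pandas 2.3.3 were used. No sequence was used here. Some items that the naming rule selects are not reported here.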

Additional observations from a re-analysis of the deposited data

Results flagged for a closer look

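The 170 named genes followed under the alternatives were searched here, apart from the gate markers, and not all measured genes. In 4 of them the CPM ratio of mutant over control lay past the size rule in newborn neurons. The interval in all other passing cells lay on the opposite side of 1. The difference between the cell classes was not tested, since each group was 1 library. *srrm4*, the microexon splicing factor, had a ratio of 2.30 in newborn neurons (368 and 846 CPM) and 0.924 in other cells. *gfra3*, a neurotrophic factor receptor, had 4.41 (34 and 80 UMIs) and 0.643. *ntn1b*, a netrin, had 0.314 (167 and 52.3 CPM, with 22.3% of its UMIs in 1 cell) and 1.54. *six3b*, a homeobox factor of forebrain and eye, had 0.318 (118 and 20 UMIs) and 1.62. Of these only *srrm4* reached 50 UMIs at matched depth, with a ratio of 1.56, and it had 1.01 among newborn neurons that met neither of the other neural gates (28 control and 111 mutant cells).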

How the results depend on the processing

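No paired analysis was possible because each group had 1 library. The share ratio of newborn neurons was 0.793 with 2 markers required, 0.507 thinned to the control median, 0.480 over cells of at least 1000 UMIs and 1.43 thinned to 836 UMIs, where markers were near 0. It lay between 0.576 and 0.752 under every other setting run. The 192 higher and 862 lower genes became 327 and 511 with TMM, 405 and 1545 with a minimum of 20 UMIs (more genes measured), 56 and 170 with 200, 501 and 1870 with a ratio of 1.5, and 73 and 83 at matched depth, where fewer genes were measured. There were 138 higher and 276 lower genes with gated cells thinned to 8403 UMIs, and 210 and 154 without cells of the other neural gates, where higher genes outnumbered lower ones. The 440 genes 4-fold over other cells became 42 against differentiated neurons and 1230 against mesenchyme. Without cells of the other neural gates (28 control and 111 mutant cells, chosen after the overlap had been seen), ratios turned for *dlb* (0.892), *notch1b* (2.52), *gfap* (2.21), *pcna* (3.19), *slc32a1* (0.455), *cxcr4b* (0.556), *pax2a* (0.477), *col5a1* (1.89), *id1* (1.57) and *pax7a* (4.435). There 12 named genes no longer passed the rule, and 14 did not at matched depth. At matched depth ratios turned for *l1camb* (2.05) and *pax7a* (2.02). Turned means that the ratio crossed 1 and passed the rule in at least 1 of the 2 settings compared. Other named genes crossed 1 within the rule and are not listed, such as *nrxn1a* and *neurod1* at matched depth. *elavl3* and *dla* did so without cells of the other neural gates. The muscle genes *mylpfa* and *actc1b* fell to 0.187 and 0.241 with 4 markers, 0.223 and 0.271 without cells in the mesenchyme gate, and 0.234 and 0.294 without the highest Scrublet scores. Apart from these causes by construction, the cause was not tested. Of all ratios of named genes under alternatives, 1008 kept their call or, within the rule, stayed inside the main interval. Another 242 left that interval within the rule, 77 newly passed the rule on the same side of 1, 66 no longer passed it and 18 turned. For ratios within the rule in both settings, the side of 1 was not checked.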
